A study of Mus musculus with 8 samples.

Results

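The genes described here are 7 inhibitors of cysteine proteases: the stefin A genes Stfa1, Stfa2, Stfa3 and Stfa2l1, stefin B (Cstb), cystatin C (Cst3) and cystatin M/E (Cst6). They were chosen by name, as listed genes plus any gene whose mouse symbol begins with Stfa, and make up 7 of the 41388 gene identifiers in the count tables. A search of all symbols found 4 that begin with Stfa, all of them already listed. The list was drawn up with results of the same comparison known, so the members' differences between groups are given as a description, without a p-value.

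RNA was sequenced from whole ear skin of 8 adult wild-type (WT) C57Bl/6 mice, in 1 library per mouse. The control group was 4 mice given ethanol, the vehicle, and the treated group was 4 mice given MC903, which is calcipotriol, a vitamin D analog, on the skin at 1 nmol daily for 12 days. Topical MC903 is used to produce skin inflammation and itch that resemble atopic dermatitis, and the comparison asks which transcripts differ in treated skin. The labels name no transgene, deletion or other agent for either group, and give neither an age in weeks nor a sex.

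Cystatins are tight-binding, reversible inhibitors that block the active site of papain-like cysteine proteases, the cathepsins, with a wedge of conserved loops. Stefins lack a signal peptide and act inside the cell, whereas cystatin C and cystatin M/E are secreted. Human skin has a single stefin A, a component of the cornified envelope of keratinocytes whose loss causes a peeling skin disease, while the mouse carries a cluster of stefin A copies, some of which are also abundant in neutrophils and their precursors. Stefin B is made in most cell types. Cystatin M/E is an epidermal inhibitor of cathepsin L and legumain, and mice without it develop a severe scaling skin.

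The 4 stefin A genes lie within the same stretch of mouse chromosome 16, and each of their deposited gene models has 3 exons. In mm10, Stfa2l1 spans chr16:36156811-36161948 on the plus strand, Stfa1 chr16:36277148-36285371 on the plus strand, Stfa2 chr16:36403946-36408363 on the minus strand and Stfa3 chr16:36450537-36455392 on the minus strand. Cstb lies at chr10:78425670-78427619 (plus strand, 3 exons), Cst3 at chr2:148871722-148875692 (minus strand, 4 exons) and Cst6 at chr19:5344705-5349574 (minus strand, 3 exons). No exon of the 7 members overlapped an exon of another gene in the deposited models.

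The coding bases below surround the first inhibitory loop, a conserved hairpin that enters the protease's active site. They are shown because their similarity bears on how far reads of 50 bases can be assigned to a single stefin A gene. Each line gives 60 coding bases, 5′ to 3′, from GENCODE M21 transcripts (Stfa1 from coding base 115 to 174), and capitals mark bases that differ from Stfa1. BC100530 and Csta1 are stefin A genes of the same cluster that carry other symbols.
Stfa1: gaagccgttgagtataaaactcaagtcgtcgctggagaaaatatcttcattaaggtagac
Stfa3: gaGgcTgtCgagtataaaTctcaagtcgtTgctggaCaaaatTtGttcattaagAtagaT
Stfa2: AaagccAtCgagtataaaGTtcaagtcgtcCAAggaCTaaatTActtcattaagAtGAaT
Stfa2l1: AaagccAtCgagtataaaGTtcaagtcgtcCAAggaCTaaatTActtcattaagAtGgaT
BC100530: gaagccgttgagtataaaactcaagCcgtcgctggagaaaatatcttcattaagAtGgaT
Csta1: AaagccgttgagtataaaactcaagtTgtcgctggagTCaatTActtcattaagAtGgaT
Cstb: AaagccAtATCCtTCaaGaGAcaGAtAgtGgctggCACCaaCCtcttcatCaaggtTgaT
Cst6: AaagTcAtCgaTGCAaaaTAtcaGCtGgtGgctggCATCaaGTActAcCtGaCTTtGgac
Cst3: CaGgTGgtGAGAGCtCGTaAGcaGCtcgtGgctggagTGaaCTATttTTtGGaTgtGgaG
The BC100530 stretch differed from Stfa1 at 4 of 60 bases, Csta1 at 9, Stfa3 at 10, Stfa2l1 at 15 and Stfa2 at 16. Stefin B differed at 24, cystatin M/E at 28 and cystatin C at 31. Over the aligned coding sequence, Stfa1 and BC100530 were 98.0% identical and Stfa2 and Stfa2l1 were 96.5% identical. Stfa1 was 84.7% identical to Stfa3, 79.3% to Stfa2 and 62.4% to Cstb.

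Every 50-base window of each transcript was searched for in all annotated transcripts of other genes. Of the 465 windows of Stfa1, 118 (25.4%) occurred exactly in another gene, most often in BC100530. The share was 15.9% for Stfa2 (67 of 422 windows, mostly in Stfa2l1) and 24.6% for Stfa2l1 (91 of 370). None of the 363 windows of Stfa3 and none of the windows of Cstb, Cst3 and Cst6 occurred in another gene. With up to 2 mismatches against the other listed stefin and cystatin transcripts, the share rose to 69.2% for Stfa1, 57.8% for Stfa2 and 65.9% for Stfa2l1, against 5.79% for Stfa3. How the submitters' counting treated reads that map to several places is not given in the sources used here, so the split of reads among Stfa1, BC100530, Stfa2 and Stfa2l1 is uncertain, while Stfa3 and the members outside the cluster are little touched by it.

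**Figure D1:**
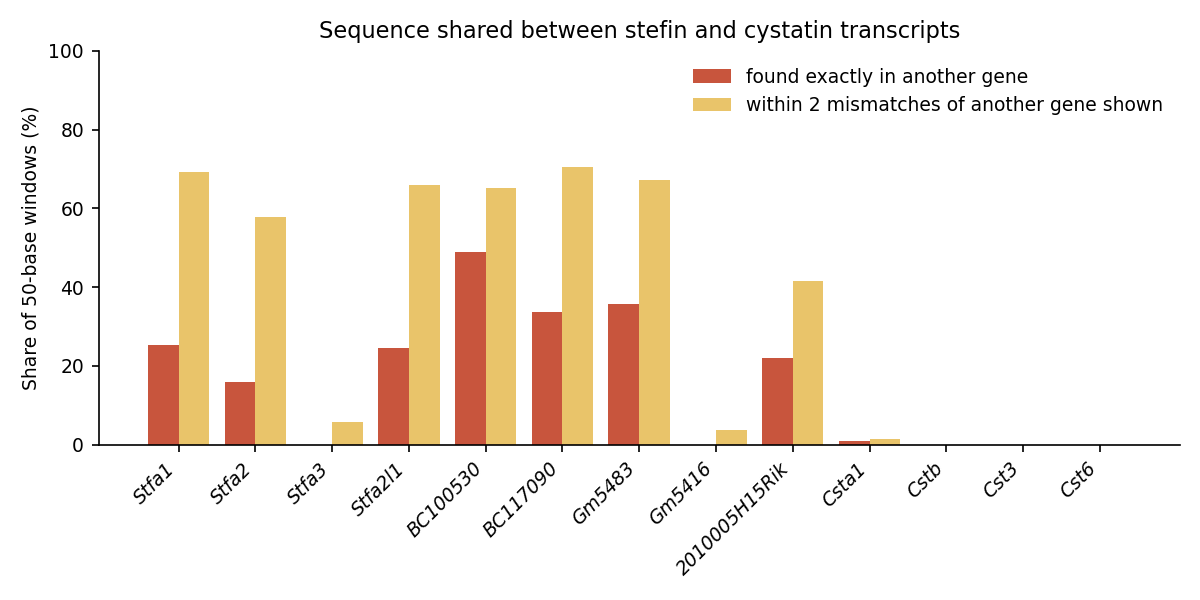
Share of 50-base windows (y axis, percent) of 13 stefin and cystatin transcripts (x axis) that occur exactly in another gene (red bars) or lie within 2 mismatches of another gene shown (yellow bars). Stfa1, Stfa2 and Stfa2l1 share 15.9% to 25.4% of their windows exactly, whereas Stfa3, Cstb, Cst3 and Cst6 share none.

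Library totals ran from 14223908 to 16837221 counts in the vehicle group and from 12310466 to 15575518 in the MC903 group. By these totals 3 counts, taken as the limit of detection, equal 0.178 to 0.244 CPM (counts scaled to a common library size). After the TMM adjustment used for the levels below, they equal 0.171 CPM (vehicle mouse 3) to 0.250 CPM (MC903 mouse 2). Intervals and limits from counts cover counting error only. The vitamin D target Cyp24a1 was between 16.5 and 20.7 CPM in the vehicle libraries and between 3390 and 4318 CPM in the MC903 libraries, in accord with the labels of all 8. Keratinocyte genes (10 listed, among them Krt5 and Krt14) summed to 13890 to 14914 CPM in vehicle and 20013 to 23842 CPM in MC903 libraries, so skin epithelium was present throughout. The library of vehicle mouse 2 stood apart: 11 matched genes known from salivary glands took 29.0% of its counts, against 0.0221% to 0.0526% in the other 7, and its TMM factor was 0.775, against 0.953 to 1.13. CPM values below are adjusted by TMM factors, and fold changes are also given without that library.

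Of 16105 genes that passed the low-count filter, 41.5% were called between MC903 and vehicle skin by edgeR's quasi-likelihood test (adjusted p under 0.05), 21.3% as higher and 20.2% as lower. All 7 members passed the filter, Stfa2l1 only through its MC903 libraries. Stfa1, Stfa2, Stfa3, Stfa2l1 and Cstb were called higher and none was called lower, and Cst3 and Cst6 were not called. In the same 5 genes every MC903 library was above every vehicle library, a pattern that 19.8% of all tested genes showed (18.9% showed the reverse). Because the members were chosen from this comparison, nothing is read from these counts.

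Stfa1 encodes a stefin A, an intracellular inhibitor of cathepsins B, H, L and S. It was at 12.6, 14.6, 9.77 and 7.37 CPM in vehicle mice 1 to 4 and at 573, 813, 744 and 472 CPM in MC903 mice 1 to 4. Every treated ear was far above every control ear, with MC903 mouse 4 the lowest of the treated group and vehicle mouse 2 the highest of the controls. The mean went from 11.1 ± 3.17 to 650.4 ± 156 CPM (SD, n = 4 per group), a 58.7-fold ratio, and the fitted log2 fold change was 5.88 ± 0.29 (SE).

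Stfa3, the stefin A gene whose reads are the least shared with its relatives, was at 5.36, 7.22, 4.06 and 5.25 CPM in the vehicle libraries. In the MC903 libraries it was at 558, 829.7, 533 and 489 CPM. The groups were again wide apart, and the highest treated ear was that of mouse 2, as for Stfa1. The mean went from 5.47 ± 1.31 to 603 ± 154 CPM (SD, n = 4 per group), a 110.1-fold ratio with a log2 fold change of 6.79 ± 0.27 (SE).

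Stfa2 was the scarcest of these 3 genes in both groups. It was at 1.89, 3.07, 1.31 and 1.81 CPM in vehicle ears, from 32, 40, 23 and 29 counts, and at 335, 357, 294 and 194 CPM in MC903 ears, from 2390 to 4962 counts. The 146-fold ratio of its means (2.02 ± 0.746 against 295 ± 72.2 CPM, SD, n = 4 per group; log2 fold change 7.21 ± 0.30, SE) was the widest of the 7 members. Its level in the control ears rests on few counts.

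Stfa2l1, a close copy of Stfa2, was near the limit of detection in control ears, with 0, 0, 1 and 4 counts. The MC903 libraries held 68, 75, 63 and 15 counts, or 4.59, 6.25, 4.17 and 1.22 CPM, with mouse 4 again the lowest. Summed over the libraries, 5 counts against 221 give a ratio of 51.7 per unit of depth, with an exact 95% interval of 21.8 to 161. The fitted log2 fold change of 5.55 ± 0.72 (SE) depends on the prior count and went from 5.13 to 7.10 as single libraries were left out, reaching 7.10 without vehicle mouse 4. Stfa2l1 counts were 0.628% to 1.75% of Stfa2 counts in the MC903 libraries. Of its windows, 16.8% occurred exactly in Stfa2 and 75.4% in no other gene. How many of its reads are misplaced Stfa2 reads cannot be told from the counts.

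Without vehicle mouse 2, the log2 fold change was 6.03 for Stfa1, 7.45 for Stfa2, 6.94 for Stfa3 and 5.23 for Stfa2l1. Without MC903 mouse 4 it was 6.01, 7.37, 6.88 and 5.85 in the same order. The stefin A difference was thus as large or nearly as large without either library.

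**Figure D2:**
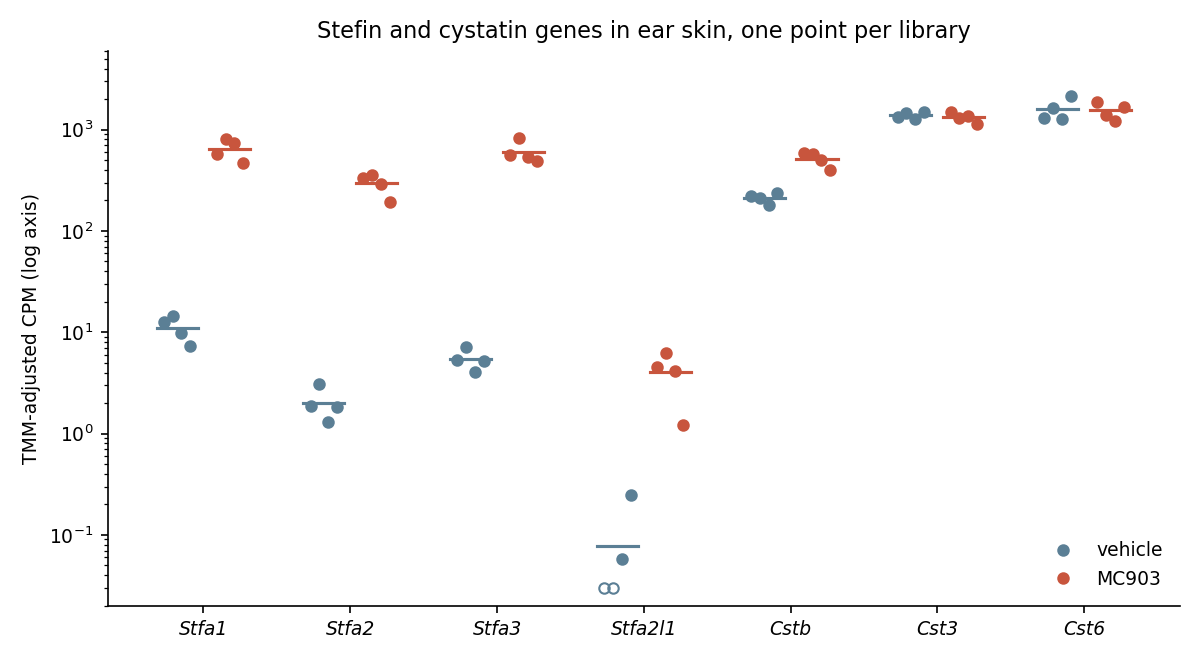
Level of each of the 7 inhibitor genes (x axis) in TMM-adjusted CPM (y axis, log scale), with a point per library, vehicle in blue and MC903 in red, and a line at the group mean. Open circles at the bottom are libraries with 0 counts. The 4 Stfa genes and Cstb separate by group, while Cst3 and Cst6 overlap.

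Summed, the 4 Stfa genes were at 19.9, 24.9, 15.2 and 14.7 CPM in vehicle ears and at 1470, 2006, 1575 and 1156 CPM in MC903 ears. That is an 83.2-fold ratio of the means (18.7 ± 4.77 against 1552 ± 351 CPM, SD, n = 4 per group). Levels of genes of unequal length are compared here per kilobase of the deposited gene model. On that scale the 4 Stfa genes made up 2.37 ± 0.601% of the summed level of the 7 inhibitors in vehicle skin and 61.4 ± 4.69% in MC903 skin. The ratio of the 4 Stfa genes to stefin B, per kilobase, was between 0.0893 and 0.170 in control ears and between 3.58 and 5.02 in treated ears. With the other stefin A genes of the cluster added, 10 genes in all, it was between 0.172 and 0.299 in control ears and between 4.78 and 6.88 in treated ears, so stefin A transcripts were below stefin B in every control ear and above it in every treated ear. The 4 Stfa genes were also unequal among themselves: the ratio of Stfa1 to Stfa3 per kilobase was 2.02 ± 0.454 in vehicle ears and 1.08 ± 0.202 in MC903 ears. The lowest vehicle ratio, 1.385 in mouse 4, and the highest MC903 ratio, 1.375 in mouse 3, did not overlap but nearly met.

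Other genes lie among and beside the 4 Stfa genes. The list of cluster neighbours matched 22 genes, of which 7 passed the low-count filter, 5 of them only through the MC903 libraries. All 7 were called higher, against 21.3% of all genes tested. A gene kept only through high MC903 libraries could hardly be called otherwise, so nothing is read from this count. BC100530, the near-copy of Stfa1, was at 9.90, 16.4, 13.0 and 5.87 CPM in vehicle ears and at 639, 1019, 761 and 638 CPM in MC903 ears, a log2 fold change of 6.08 ± 0.35 (SE). Csta1 was at 67.8, 56.9, 56.8 and 66.0 CPM in control ears and at 605, 707, 639 and 434 CPM in treated ears. These counts come from a long gene model of 2783 bases, and per kilobase its vehicle level, 22.2 ± 2.10 CPM, was near the 26.5 ± 7.59 of Stfa1. Its 9.63-fold ratio (log2 fold change 3.27 ± 0.19, SE) was the narrowest of the cluster genes tested, and its transcript shares 0.805% of its windows with other genes.

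The rest of the neighbours were near the limit of detection in control ears. BC117090 went from 10 counts over 4 vehicle libraries to 959 over 4 MC903 libraries, a ratio of 112 per unit of depth (exact 95% interval 60.8 to 235). Gm5416, named Csta3 by RefSeq, went from 28 to 1739 counts, a ratio of 72.7 (50.1 to 109.8). Gm5483, named Cstdc4, went from 5 to 292 counts, a ratio of 68.4 (29.0 to 212). None of the windows of Gm5416 occurred exactly in another gene, so this low neighbour is the one whose counts are the least open to reads of its relatives. 2010005H15Rik (Csta2), with 3 counts against 127, had a ratio of 49.6 (16.6 to 244). Gm15845 overlaps 145 exonic bases of BC100530 out of its own 996, and without strand its reads in that part cannot be separated from those of BC100530.

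The makeup of the stefin A genes also differed between the groups, taken per kilobase over the 10 that passed the filter (Gm15845 left out). Csta1 held 28.0%, 19.4%, 27.5% and 34.9% of the summed level in vehicle ears and 4.61%, 3.84%, 4.46% and 4.05% in MC903 ears. Over the same libraries the mean share of Stfa3 went from 15.9 ± 2.35% to 28.8 ± 2.62% and that of Stfa2 from 5.63 ± 1.22% to 13.7 ± 2.13% (SD, n = 4 per group), in both without overlap. The shares of Stfa1 (31.3 ± 3.82% and 30.6 ± 2.66%) and BC100530 (16.8 ± 5.07% and 19.1 ± 1.61%) overlapped between the groups. By mean share, Stfa1 and Csta1 were the leading transcripts in control ears, and Stfa1 and Stfa3 in treated ears. As raw counts, which weight Csta1 by its length, its mean share was 67.0% in vehicle and 20.1% in MC903 ears. Summing the cluster's counts before the fit removes the question of which copy a read belongs to, and gave a log2 fold change of 5.003, again with the weight of the long Csta1 model.

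**Figure D3:**
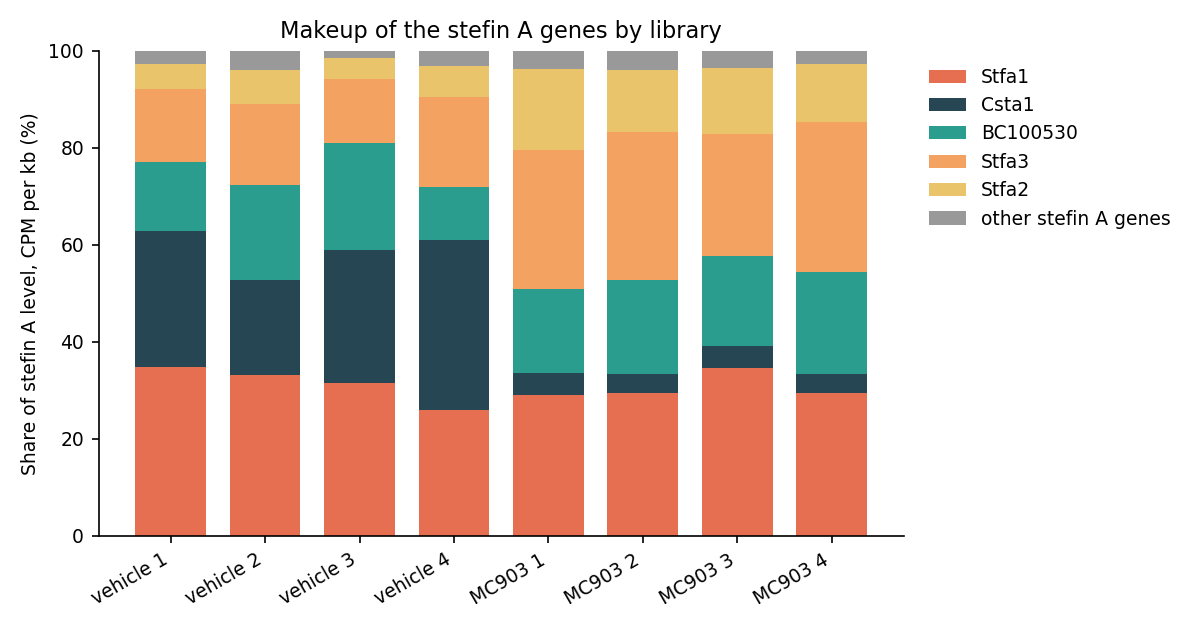
Share of the summed level of 10 stefin A genes, in CPM per kilobase (y axis, percent), held by each gene in each of the 8 libraries (x axis), stacked to 100%. Csta1 holds 19.4% to 34.9% in the vehicle libraries and 3.84% to 4.61% in the MC903 libraries, and Stfa1 25.96% to 34.7% in all 8.

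The region upstream of each gene start was read from RefSeq (GRCm38.p6), which lists the 4 Stfa promoters but neither Cstb nor Cst6. The 250 bases before the RefSeq start are printed because the 4 genes moved together. Capitals mark a run of 12 bases that the 4 share with RefSeq's Cstdc5 (BC100530), Csta3 (Gm5416) and Cstdc4 (Gm5483).
Stfa1, chr16:36276898-36277147, plus strand: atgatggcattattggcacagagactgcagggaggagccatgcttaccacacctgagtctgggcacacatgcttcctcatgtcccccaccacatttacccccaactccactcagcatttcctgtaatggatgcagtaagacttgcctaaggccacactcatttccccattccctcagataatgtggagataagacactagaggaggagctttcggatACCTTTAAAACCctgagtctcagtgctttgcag
Stfa3, chr16:36455393-36455642, minus strand: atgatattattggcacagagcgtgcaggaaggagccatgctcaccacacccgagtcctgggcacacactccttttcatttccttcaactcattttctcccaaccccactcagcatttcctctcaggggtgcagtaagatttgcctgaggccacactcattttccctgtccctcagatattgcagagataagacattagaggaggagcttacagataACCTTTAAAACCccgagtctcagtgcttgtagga
Stfa2, chr16:36408364-36408613, minus strand: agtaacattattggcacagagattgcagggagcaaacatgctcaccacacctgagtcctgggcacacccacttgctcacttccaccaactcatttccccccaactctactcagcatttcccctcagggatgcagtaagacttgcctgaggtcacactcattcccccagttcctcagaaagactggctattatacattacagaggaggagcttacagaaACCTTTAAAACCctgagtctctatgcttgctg
Stfa2l1, chr16:36156561-36156810, plus strand: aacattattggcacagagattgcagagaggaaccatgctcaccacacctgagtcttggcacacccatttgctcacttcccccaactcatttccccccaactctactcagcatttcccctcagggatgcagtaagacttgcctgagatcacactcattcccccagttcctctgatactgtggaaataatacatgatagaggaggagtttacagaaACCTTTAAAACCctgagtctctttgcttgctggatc
The run in capitals begins 33 bases before the RefSeq start of Stfa1, 32 before Stfa2, 34 before Stfa3 and 36 before Stfa2l1. These distances depend on the start used. The GENCODE transcript of Stfa2 starts at -94 from the RefSeq start, upstream of the run. That of Stfa1 starts at -1, and those of Stfa3 and Stfa2l1 at 0. The run occurs on either strand in 11 of 32851 promoters of the same length. These include the promoters of the 4 Stfa genes, Cstdc5, Csta3 and Cstdc4, from which the run was taken, so its rarity elsewhere is no separate result. The run contains TTTAAA, which is present in 12.1% of all promoters. The longest run common to the 4 Stfa promoters, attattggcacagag, has 15 bases and occurs in 5 promoters, among them these 4 and that of Cstdc5. Stfa2 and Stfa2l1 were 89.4% identical over the aligned 250 bases and Stfa1 and Stfa3 83.1%. The 250-base windows of Csta1 and of Csta2 (2010005H15Rik) do not hold the run. The Csta1 window ends at bases whose like in Stfa1 lies upstream of the run. Its absence there is therefore set by where the window ends, and nothing is read from it.

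Letters of some known binding motifs were also searched on both strands. TATAAA (in 12.4% of promoters), the AP-1 motif TGANTCA (6.75%), the NF-kB motif GGGNNTTCC (4.98%) and a vitamin D response element of the DR3 type (1.74%) matched none of the 4 Stfa promoters in this window. Of the cluster promoters of Csta1, Csta2, Csta3, Cstdc4 and Cstdc5, that of Cstdc4 (Gm5483) alone held a DR3 match, at -152 from its start. The C/EBP-like motif TTNNGNAA (36.8%) matched once each in Stfa1, Stfa2 and Stfa2l1 and not in Stfa3, and it overlaps none of the other matches. These are matches of letters only and say nothing of binding.

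Stefin B, the intracellular inhibitor found in most cells, was at 223, 211, 180.2 and 237 CPM in vehicle ears. It was at 591, 575, 504 and 401 CPM in MC903 ears, so that the lowest treated ear, mouse 4, was above the highest control ear. The mean went from 213 ± 24.1 to 518 ± 86.2 CPM (SD, n = 4 per group), a 2.43-fold ratio with a log2 fold change of 1.28 ± 0.17 (SE), or 1.27 without vehicle mouse 2. The step was small beside that of the stefin A genes, but it started from a higher level.

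Cystatin C, the abundant secreted inhibitor of cathepsins, was at 1339, 1445, 1283 and 1494 CPM in vehicle ears and at 1506, 1301, 1363 and 1139 CPM in MC903 ears. The groups overlapped, with MC903 mouse 4 the lowest library and mouse 1 the highest. The means were 1391 ± 96.3 and 1328 ± 152 CPM (SD, n = 4 per group), and the log2 fold change of -0.07 ± 0.16 (SE) was not called.

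Cystatin M/E, the inhibitor of legumain and cathepsin L that is needed for normal cornification, was at 1291, 1641, 1270 and 2144 CPM in vehicle ears. Its MC903 levels were 1884, 1406, 1221 and 1684 CPM. The range was wide within each group, the highest library being vehicle mouse 4, and the groups overlapped almost fully. The means were 1586 ± 409 and 1549 ± 294 CPM (SD, n = 4 per group), with a log2 fold change of -0.03 ± 0.22 (SE) that was not called.

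Levels of different genes were ranked per kilobase of the deposited gene length. In vehicle skin the order was Cst3 (1098 ± 76.1 CPM per kilobase, SD, n = 4), Cst6 (401 ± 103), Cstb (355 ± 40.2), Stfa1 (26.5 ± 7.59), Stfa3 (13.3 ± 3.18), Stfa2 (4.78 ± 1.76) and Stfa2l1 (0.185). Every gene in that order was clear of the next over the 4 libraries except Cst6 and Cstb, which overlapped. In MC903 skin the order was Stfa1 (1556 ± 374), Stfa3 (1463 ± 374), Cst3 (1049 ± 120.1), Cstb (864 ± 144), Stfa2 (697 ± 171), Cst6 (392 ± 74.3) and Stfa2l1 (9.80 ± 5.06). There the first 6 each overlapped the next, and Stfa2l1 alone stood clear. Stfa1 and Stfa3 thus went from well below the abundant cystatins to the same range. The place of Cst6 depends on its 3951-base gene model, in which 450 bases of the transcript are coding.

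Further members of the cystatin superfamily were few in this tissue. Of 13 listed, 4 passed the filter, and Cst8, Cst9 and Cst11 to Cst13 were at 0 counts in every vehicle library. Fetub, a liver-secreted inhibitor of the astacin protease ovastacin, was higher in MC903 ears (3.78 ± 1.10 against 21.6 ± 6.83 CPM, SD, n = 4 per group; log2 fold change 2.51 ± 0.26, edgeR adjusted p = 2.59e-05). Cst7, cystatin F of immune cells, was also higher (4.25 ± 0.516 against 7.61 ± 1.47 CPM, n = 4 per group; log2 fold change 0.84 ± 0.19, edgeR adjusted p = 0.00418). Kng2, a kininogen, was not called (log2 fold change -0.51 ± 0.43, edgeR adjusted p = 0.366). Cst10 was called lower (-8.89 ± 2.53, edgeR adjusted p = 0.0157), but on the library of vehicle mouse 2 alone, which held 44253 counts against 16 to 74 in the other 7. Without that library its log2 fold change was -0.31 and it was not called.

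The proteases that these inhibitors act on were measured in the same libraries. Of 11 listed cysteine proteases, all 11 passed the filter, 8 were called higher and 1 lower, and their median log2 fold change was 1.21, against -0.03 over all genes tested. Cathepsin S (Ctss), the antigen-processing cathepsin of macrophages and dendritic cells, went from 182 ± 14.98 to 699.7 ± 93.0 CPM (n = 4 per group; log2 fold change 1.94 ± 0.16, edgeR adjusted p = 5.81e-06). Cathepsin C (Ctsc), the activator of granule serine proteases, had a log2 fold change of 1.61 ± 0.14 (edgeR adjusted p = 1.07e-05). Legumain (Lgmn), a target of cystatin M/E and cystatin C, went from 81.0 ± 14.8 to 239.7 ± 51.8 CPM (n = 4 per group; 1.57 ± 0.19, edgeR adjusted p = 7.37e-05). Cathepsin K (Ctsk) was called with overlapping groups (0.65 ± 0.23, edgeR adjusted p = 0.0392), and the call was lost when any of 5 libraries was left out. Cathepsin F (Ctsf) was lower (-1.03 ± 0.13, edgeR adjusted p = 0.000132). Ctso (-0.31 ± 0.17, edgeR adjusted p = 0.167) and Ctsw (-0.07 ± 0.22, edgeR adjusted p = 0.830) were not called.

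Ratios of an inhibitor to a protease depended on the pair. The ratio of Cst6 to Lgmn counts was 14.7, 18.2, 14.6 and 36.4 in vehicle ears and 6.00, 5.97, 6.07 and 8.10 in MC903 ears, with no overlap. The ratio of Cst3 to cathepsin B (Ctsb) counts went from 1.74 ± 0.336 to 0.934 ± 0.159 (SD, n = 4 per group), also with no overlap, whereas that of Cst3 to Ctsf, the protease called lower, went up from 44.2 ± 5.39 to 85.6 ± 9.02. For stefin B the ratio to Ctsl overlapped between the groups (0.673 ± 0.138 and 0.641 ± 0.101). The fold changes of the 4 Stfa genes were above those of all 11 proteases, and that of Cstb was below those of Ctss, Ctsc, Lgmn and Ctsl. Summed per kilobase, the ratio of the 7 inhibitors to the 11 proteases was 2.46 ± 0.342 in vehicle and 3.31 ± 0.667 in MC903 ears, with overlap. In summed CPM, which weights genes by length, the direction was the opposite (1.62 ± 0.354 and 1.13 ± 0.129), with no overlap. These pairs were chosen after their values were seen.

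**Figure D4:**
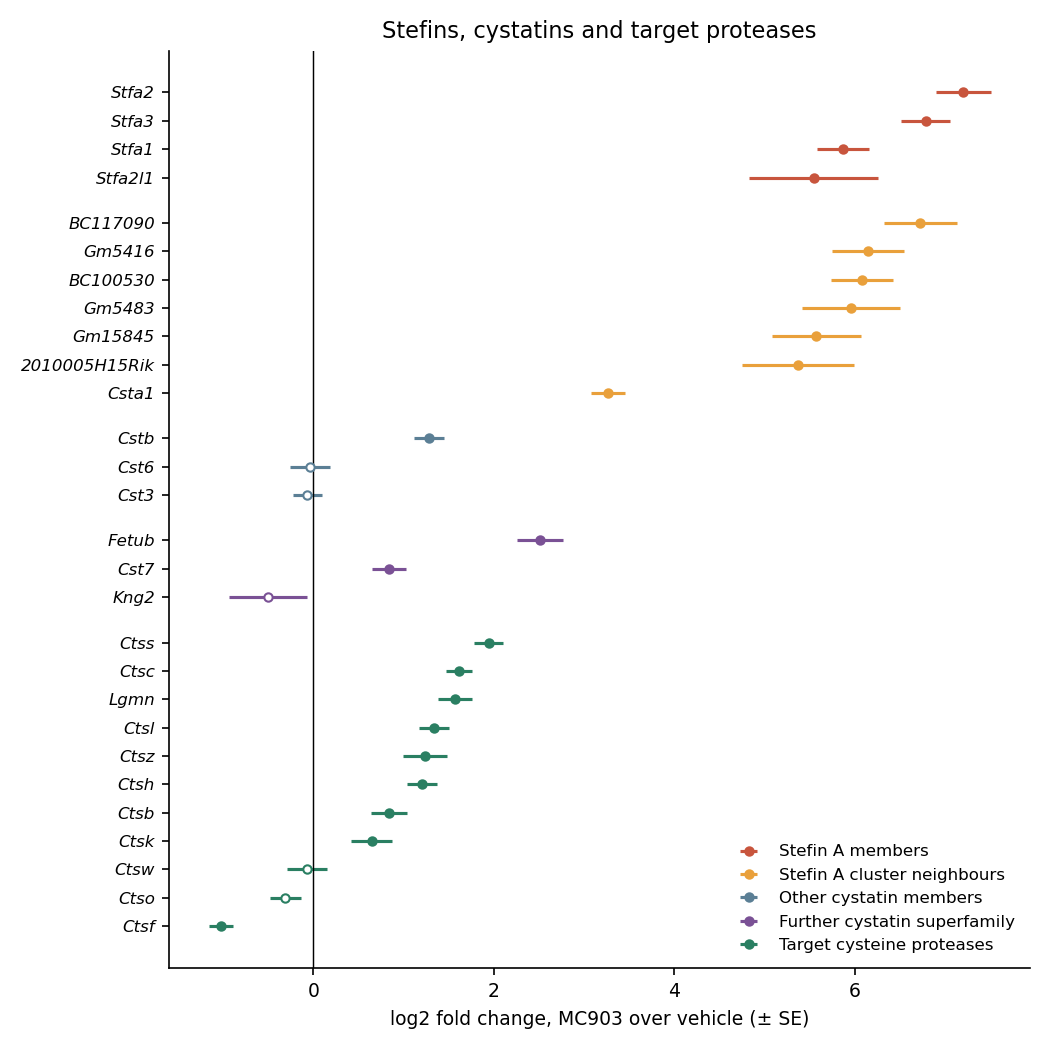
Log2 fold change of MC903 over vehicle (x axis, points with SE bars) for stefin A genes, their cluster neighbours, the other cystatin members, further cystatins and target proteases (y axis). Filled points were called, open points were not, and Cst10 is left out because its value rests on 1 library. The stefin A genes and neighbours other than Csta1 lie above 5, Cst3 and Cst6 at 0.

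Since the tissue was whole ear, fewer or more cells of a type and less or more RNA per cell cannot be told apart. Many markers of cell types that can express stefin A were higher in MC903 ears, though not all. Of 17 listed neutrophil genes, 11 passed the filter and 9 were called higher (median log2 fold change 3.09), among them S100a8 (4.58 ± 0.56, edgeR adjusted p = 8.67e-05), which keratinocytes also make. Il1r2 (-0.34 ± 0.18, edgeR adjusted p = 0.155) and Mmp9 (0.13 ± 0.28, edgeR adjusted p = 0.725) were not called. Below the filter, counts summed over each group fell for Mpo (53 to 13) and Elane (12 to 6). They were near level for Camp (13 to 12) and rose for Ngp (10 to 49), Ltf (8 to 25) and Ly6g (0 to 6). The summed level of the 17 genes was 289 to 401 CPM in vehicle and 627 to 1697 CPM in MC903 ears. S100a8, S100a9 and Il1r2 held most of it. Without S100a8 and S100a9 the groups overlapped (vehicle 299.2 ± 35.8, MC903 338.8 ± 64.9 CPM, SD, n = 4 per group). Il1r2 made up most of that remainder. With Il1r2 also left out, the other 14 genes summed to 18.0 to 26.0 CPM in vehicle and 86.7 to 139 CPM in MC903 ears. The defining neutrophil marker Ly6g was at 0 in all vehicle libraries and between 0 and 4 counts in the MC903 libraries. The 10 macrophage genes were all called higher (median 1.73), from 814 to 984 CPM summed in vehicle to 1878 to 2922 CPM in MC903 ears. Of the 10 keratinocyte genes, 4 were called higher and none lower (median 0.37). The part of any of these cell types in the stefin A difference was not tested.

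Relative to its group's mean on the log2 scale, MC903 mouse 4 was the lowest treated library for the 4 summed Stfa genes (-0.40), Csta1 (-0.44), Cstb (-0.35) and Cst3 (-0.21). It was also the lowest for S100a8 (-1.38), the 14 neutrophil genes (-0.43) and the macrophage genes (-0.30), but not for the keratinocyte genes (0.11). For Cst6 the lowest treated library was mouse 3 (-0.32). Among the control ears the order was shared only in part. Vehicle mouse 2 was the highest for the 4 Stfa genes (0.44), the 14 neutrophil genes (0.31) and the macrophage genes (0.17). For all 17 neutrophil genes the highest was vehicle mouse 4 (0.20), and vehicle mouse 2 stood at -0.005. For the 13 listed cornified envelope genes, vehicle mouse 2 was the lowest control library (-0.14) and MC903 mouse 3 the lowest treated library (-0.12). The highest was vehicle mouse 1 for Csta1 (0.14) and vehicle mouse 4 for Cstb (0.16), Cst3 (0.11), Cst6 (0.47) and S100a8 (1.16). Vehicle mouse 4 was the lowest for the 4 Stfa genes (-0.30), and vehicle mouse 3 for the 14 neutrophil genes (-0.21) and the macrophage genes (-0.11).

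**Figure D5:**
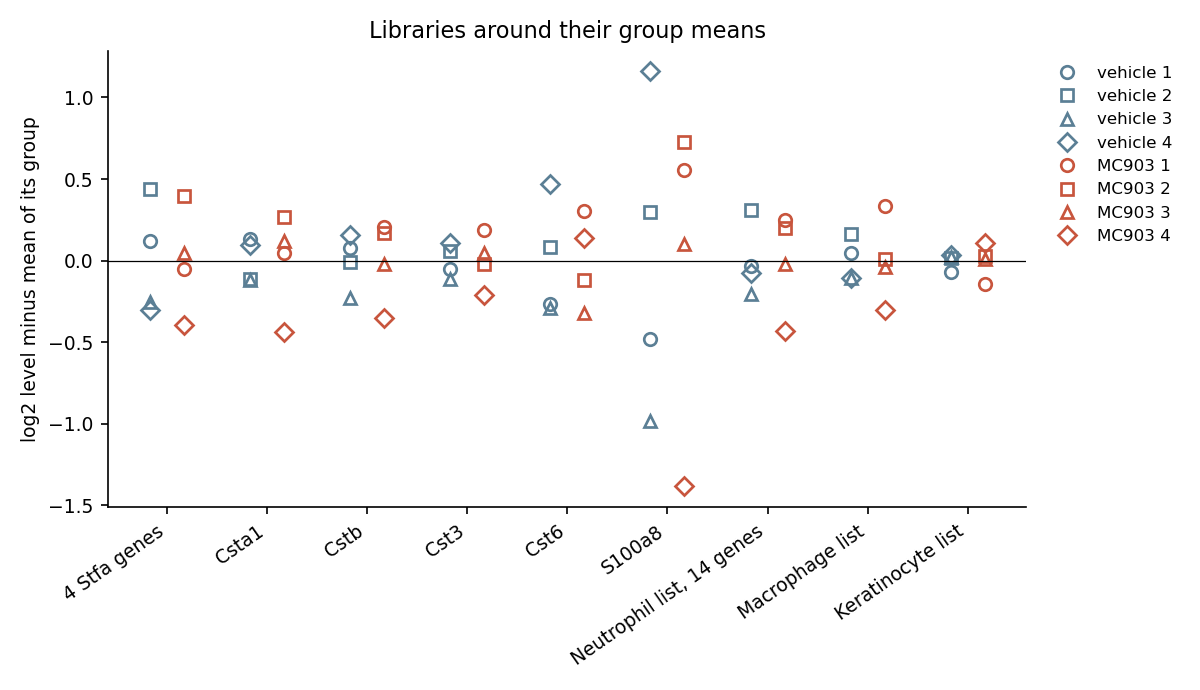
Departure of each library from the mean of its group in log2 units (y axis) for stefin and cystatin genes and marker lists (x axis), vehicle in blue and MC903 in red, with a symbol shape per mouse number. MC903 mouse 4 (red diamond) is the lowest treated library for the Stfa genes, Csta1, Cstb, Cst3, S100a8 and the myeloid lists.

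The genes whose departures were most like those of the members were ranked by Pearson's r over the 8 libraries after each group's mean was removed, among 11458 genes. For the 4 summed Stfa genes they were Racgap1 (0.98), Clec4a3 (0.96), Clec4a2 (0.96), Ncf1 (0.95) and Grcc10 (0.95). Clec4a2 and Clec4a3 encode myeloid lectin receptors, Ncf1 a subunit of the phagocyte oxidase and Racgap1 a protein of the dividing cell's midbody. For Cstb they began with Tnfsf12 (0.99), Wfdc17 (0.98) and Rnf166 (0.98), for Cst3 with Tnfrsf4 (0.98), Stard10 (0.98) and Pheta1 (0.97), and for Cst6 with Xylt2 (0.95), Tmem97 (0.94) and Tgm5 (0.92). With 8 libraries, high values of r are reached by many genes, and these are given as a description. The largest departure of the summed Stfa level (0.44) was that of vehicle mouse 2, the library with the salivary genes.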

How the data were processed

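Counts per gene were read from the tables the authors deposited, 1 per library, which also hold CPM and RPKM values. Recomputed from the counts, the deposited CPM differed by at most 2.33e-10 and the deposited RPKM by at most 5.82e-11. Both were used only for this check. Per the labels' protocols, ribosomal RNA was removed from 1 ug of total RNA and single reads of 50 bases were sequenced. The submitters' processing notes name STAR 2.0.4b, Subread, featureCounts 1.4.5 and mm10. The annotation release, strand setting and handling of multiply mapped reads are not given in the sources used here. Of 41388 identifiers, 40254 were named from a symbol table, 153 by overlap of at least 90% with a gene of GENCODE M21, and 981 have no name here.

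The test was edgeR's quasi-likelihood F-test (version 4.0.16, R 4.3.3) with group as the only term, after TMM normalization, on the 16105 genes that filterByExpr kept; p-values were adjusted over all of them by Benjamini-Hochberg, with a threshold of 0.05. SE is the log2 fold change divided by the square root of F. A seeded simulation with the same groups over 15653 genes called 65 of 100 genes changed 2-fold and 99 of 100 changed 4-fold, with 6.82% of calls false. Only those 100 genes at each fold were changed, whereas 41.5% of genes were called in the data. The adjusted threshold was therefore reached under another setting, and these shares hold for the simulation only. Alternatives were other normalizations and filters, DESeq2 1.42.0, limma-voom (limma 3.58.1), a replicate block, the summed cluster and each library left out. Likeness used log2(CPM + 0.5) for genes of mean CPM at least 5. Exact intervals used Python 3.11.15 with scipy 1.17.1.

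The members and the gene lists were chosen with earlier results of these data known. Named genes are the members and the tested neighbours. From each other list they are up to 3 called genes with the largest fold change and up to 2 not called with the highest level. Ctsf, Ctsb, Ctsl, Ctsk, Ppl, Ly6g, S100a9, Mpo, Elane, Camp, Ngp and Ltf were added after their values were seen. The labels give 4 mice per group, but no batch, so p-values measure the spread between these mice as prepared.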

Additional observations from a re-analysis of the deposited data

Results flagged for a closer look

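In 58 groups of 4 libraries, 3 held a library far from the other 3 by Dixon's criterion, which chance alone meets in about 1 of 20 groups. None of the 7 inhibitor genes was among them. Cst10 was at 3400 CPM in vehicle mouse 2, against 4.36 CPM in the next vehicle library, with a gap of 0.999 of the range; that library also held the salivary genes. Ctsz, cathepsin Z, was at 373 CPM in MC903 mouse 1, against 199.5 CPM in the next MC903 library, a gap of 0.905 of the range. Lgmn was at 58.8 CPM in vehicle mouse 4, against 87.2 CPM in the next vehicle library, a gap of 0.908 of the range. The ratio of Cst6 to Lgmn was the highest in that mouse (36.4), where Cst6 was also at its highest (2144 CPM).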

How the results depend on the processing

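In every alternative that keeps the genes apart, 5 members were called higher and 0 lower, also without each library in turn. Over all genes, 5389 to 7012 were called in other settings and 5514 to 7072 with a library left out, against 6682. Calls higher and lower, 3423 and 3259, became 2370 and 3019 with library sizes alone and 2977 and 3923 with upper quartile factors, which moved the median of all genes from -0.03 to -0.11. Of the cluster neighbours, 11 were called higher with no filter. The call of Cst10, the 1 further cystatin called lower, was lost (0 lower) with DESeq2, limma-voom and the replicate block, and the count ran from 0 to 1 with libraries left out. The salivary genes called lower fell to 0 with DESeq2, limma-voom and the replicate block and ran from 1 to 6 with libraries left out, and 1 was called higher with limma-voom (0 to 1 with libraries left out). Of the neutrophil genes, 1 was called lower with no filter and with DESeq2 (0 to 2 with libraries left out). The causes were not tested. Of the values for single genes, 459 kept direction and call and 11 did not, 4 of Cst10 and 7 of Ctsk, which was called at 0.65 and lost its call at 0.57 with library sizes alone or upper quartile factors, and without vehicle mouse 1, 2 or 3 or MC903 mouse 1 or 4 (0.51 to 0.68). Same-numbered libraries correlated at 0.0568, -0.139, -0.118 and -0.204, and the replicate block called 5705 genes. These values show no pairing of mice by number, but with so few libraries they cannot exclude it. Depth limits Stfa2l1 and the low neighbours in control ears.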

Other observations

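Stefin A is a component of the cornified envelope, the cross-linked protein shell of the outermost keratinocytes, and other genes of that structure were measured in the same ears. Of 13 listed, 9 were called higher in MC903 skin and 1 lower, with a median log2 fold change of 1.38 against -0.03 over all genes. The envelope precursor Sprr1b was at 17.3, 20.6, 8.57 and 6.31 CPM in vehicle and at 729, 1016, 882 and 575 CPM in MC903 ears (log2 fold change 5.93 ± 0.41, SE, edgeR adjusted p = 2.12e-06). Sprr1a (3.56 ± 0.21, edgeR adjusted p = 6.61e-07) and the filaggrin-processing protease Casp14 (3.30 ± 0.20, edgeR adjusted p = 7.03e-07) were also higher. The main envelope protein loricrin (Lor, -0.46 ± 0.24, edgeR adjusted p = 0.148) and involucrin (Ivl, 0.31 ± 0.24, edgeR adjusted p = 0.319) were not called, and periplakin (Ppl, -0.72 ± 0.13, edgeR adjusted p = 0.00124) was lower.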
